A study of Mus musculus with 6 samples.

Results

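Fc receptors bind the constant part of antibodies and are described here as the 6 mouse genes Fcgr1, Fcgr3 and Fcgr4 (the activating receptors for IgG), Fcer1g (the signalling chain these 3 receptors share), Fcgr2b (the inhibitory receptor) and Fcgrt (the heavy chain of the neonatal Fc receptor). They were found by symbol, through their Ensembl identifiers, and all 6 of them were present among the 21780 genes of the count table and passed the filter on low counts. RNA was sequenced from CD45+CD11b+ cells sorted by flow cytometry from the pancreas of C57BL/6 mice, male and female and aged 6 to 8 weeks per the methods of the study. The mice had received either PBS or a single 1 mg dose of WGP intraperitoneally 7 days before. WGP are whole glucan particles, the hollow cell walls of the yeast Saccharomyces cerevisiae, made largely of β-glucan. Each group had 3 libraries, each from a separate mouse per the study and taken as 1 replicate, all from a single experiment.

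Activating Fc receptors sit on macrophages, monocytes and neutrophils and start phagocytosis and cytokine release when IgG-coated particles cluster them. They carry no signalling motif of their own and rely on the γ chain encoded by Fcer1g, whose immunoreceptor tyrosine-based activation motif (ITAM) is phosphorylated by Src family kinases and then recruits the kinase Syk. Fcgr2b binds the same antibodies through a similar outer part but carries an inhibitory motif (ITIM) that recruits the lipid phosphatase encoded by Inpp5d, so the balance of activating and inhibitory receptors on a cell sets its threshold for responding to immune complexes. The neonatal Fc receptor works inside the cell, where it pairs with B2m and returns IgG and albumin from endosomes to the surface.

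In the comparison of WGP with PBS, the activating receptors Fcgr4 and Fcgr1 rose, the neonatal receptor Fcgrt fell, and the inhibitory receptor Fcgr2b and the activating receptor Fcgr3 did not pass the test. Fcgr4 was 12.1-fold and Fcgr1 2.23-fold higher in the WGP libraries, and Fcgrt was 5.07-fold lower. Fcer1g was 1.51-fold higher, which passed the adjusted p but not the fold threshold. A gene was called at an adjusted p of at most 0.05 (edgeR's quasi-likelihood test, Benjamini-Hochberg over 14429 genes) together with a log2 fold change of at least 1 in either direction. By this rule 3 of the 6 genes were called, against 9.49% of all genes tested, and by the adjusted p alone 4 of 6, against 14.4%. In the latter count 3 were higher and 1 was lower, as were 7.54% and 6.81% of all genes. Of all genes tested, 4.53% were called higher and 4.96% lower in WGP. The groups did not overlap for the same 4 of 6 genes, which was also the case for 32% of all genes tested (16% with every WGP library above and 16.1% with every WGP library below). Levels are given as CPM, counts scaled to a common library total with TMM factors.

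Total counts were 35334645 to 40580936 in the PBS libraries and 38240913 to 43341834 in the WGP libraries, and the lowest raw count of a member in any library was 878, for Fcgr4 in PBS replicate 1. PBS replicate 1 stood apart from the other libraries. It had a summed level of 6 B cell markers of 2499 CPM, against 653 and 378 in the other PBS libraries and 89.1 to 177 in WGP, and a summed level of 11 resident macrophage markers of 9668 CPM, against 16466 and 20117. The summed counts of the Y-linked genes Ddx3y, Eif2s3y, Kdm5d and Uty were 8972 and 10063 in PBS replicates 2 and 3 and at most 1 in each of the other 4 libraries, so PBS replicate 1 was the only PBS library that matched the WGP libraries in this. The study does not give the sex of the mice behind each library. Since only PBS libraries carried such counts, the treatment is partly confounded with whatever they mark, and the effects cannot be fully told apart. The label of myeloid cells was met by the gate genes: Ptprc (CD45) averaged 985 CPM in PBS and 1610 in WGP, and Itgam (CD11b) 228 and 395. In bulk RNA of this kind, a smaller share of the cells that make a transcript and less of it per cell cannot be told apart.

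**Figure D1:**
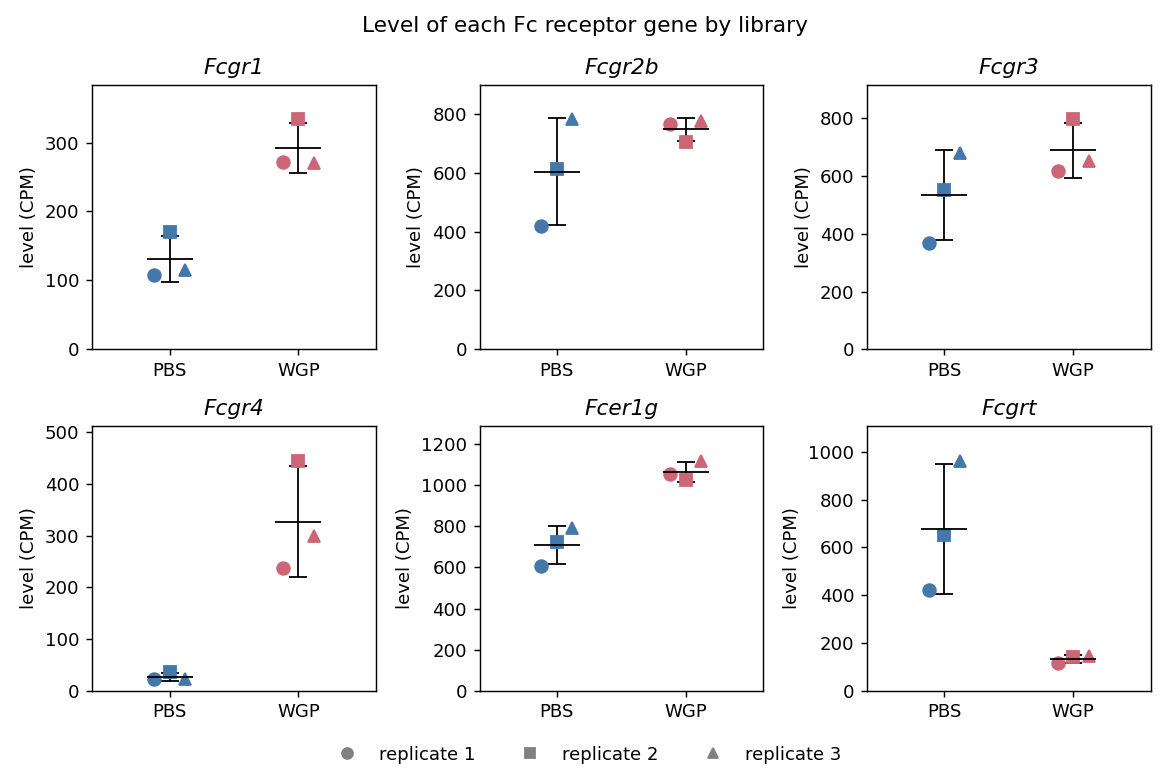
Level of each of the 6 Fc receptor genes in every library, in TMM-scaled CPM on linear axes that start at 0, with a symbol for each replicate, a bar at the group mean and whiskers of 1 SD (n = 3). The WGP libraries lie above the PBS libraries for Fcgr1, Fcgr4 and Fcer1g, below them for Fcgrt, within their range for Fcgr2b, and overlapping it for Fcgr3, with WGP replicate 2 above it.

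Fcgr4 (ENSMUSG00000059089, GRCm38 chr1:171018920-171029761, plus strand) encodes an activating receptor for mouse IgG2 subclasses found on monocytes, macrophages and neutrophils. Its levels were 22.8, 35.7 and 22.3 CPM in the PBS libraries and 237, 445 and 300 CPM in the WGP libraries. Every WGP library was above every PBS library, with WGP replicate 2 the highest. The mean went from 26.9 ± 7.60 to 327 ± 107 CPM (SD, n = 3), which is 3.60 on the log2 scale with a standard error of 0.28 (edgeR, adjusted p = 2.7e-05). The change stayed between 3.32 and 3.86 over 18 alternative settings, and its adjusted p did not exceed 0.000742 in any of them. Fcgr4 had the largest change of the 6 genes and also the most uneven level in WGP, with a coefficient of variation of 32.7%, as against 4.52% to 13.8% for the other 5.

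Fcgr1 (ENSMUSG00000015947, GRCm38 chr3:96282909-96293969, minus strand) encodes the high-affinity IgG receptor, which marks monocytes and macrophages. It was measured at 108, 170 and 116 CPM in the PBS libraries and at 272, 333 and 270 CPM in the WGP libraries. The groups did not overlap, and WGP replicate 2 was again the highest library and PBS replicate 2 the highest of its group. The mean level was 131 ± 33.8 CPM in PBS and 292 ± 36.0 CPM in WGP, and the log2 fold change and its standard error were 1.16 ± 0.20 (edgeR, adjusted p = 0.0029). Its lowest estimate, 1.03, came from leaving out PBS replicate 1.

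Fcgr3 (ENSMUSG00000059498, GRCm38 chr1:171051174-171064935, minus strand) encodes the low-affinity activating receptor. Its levels were 369, 554 and 680 CPM in PBS and 617, 797 and 654 CPM in WGP. The groups overlapped, because WGP replicates 1 and 3 lay below PBS replicate 3. The means of 534 ± 156 and 689 ± 94.9 CPM differed by less than the spread between the PBS libraries, and the log2 fold change was 0.37 ± 0.22 (edgeR, adjusted p = 0.334). Without PBS replicate 1, the library in which Fcgr3 was lowest, it was 0.16, and without PBS replicate 3, in which it was the highest of the PBS libraries, 0.58.

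Fcer1g (ENSMUSG00000058715, GRCm38 chr1:171229572-171234365, minus strand) encodes the γ chain. It was at 608, 724 and 791 CPM in PBS and 1053, 1027 and 1120 CPM in WGP. Every WGP library was above every PBS library, and the WGP libraries lay close together. The mean rose from 708 ± 92.7 to 1067 ± 48.2 CPM, with a log2 fold change of 0.59 ± 0.15 (edgeR, adjusted p = 0.0250). This gene passed the adjusted p in 15 of 18 alternative settings. It missed it without PBS replicate 2 (adjusted p = 0.0923), without WGP replicate 1 (0.0713) and without WGP replicate 3 (0.10).

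Fcgr2b (ENSMUSG00000026656, GRCm38 chr1:170958617-170976547, minus strand), the inhibitory receptor of B cells and myeloid cells, was at 419, 611 and 780 CPM in PBS and at 764, 703 and 775 CPM in WGP. All 3 WGP values lay within the range of the PBS values. The means were 603 ± 181 and 747 ± 38.7 CPM and the log2 fold change was 0.31 ± 0.21 (edgeR, adjusted p = 0.392). The WGP libraries were the more even group, with a coefficient of variation of 5.18% as against 30.0% in PBS. Leaving out PBS replicate 1 brought the log2 fold change to 0.10 (adjusted p = 0.715) and leaving out PBS replicate 3 to 0.54. B cells also make Fcgr2b, and PBS replicate 1, which had the highest summed B cell markers, had the lowest Fcgr2b level, while the part of B cell RNA in the Fcgr2b values was not tested.

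Fcgrt (ENSMUSG00000003420, GRCm38 chr7:45092990-45103851, minus strand) was the only member that fell. Its levels were 421, 653 and 964 CPM in PBS and 114, 142 and 145 CPM in WGP. Every WGP library was below every PBS library, and the PBS libraries differed 2.29-fold between themselves. The mean went from 679 ± 272 to 134 ± 17.2 CPM, with a log2 fold change of -2.34 ± 0.27 (edgeR, adjusted p = 0.000287). Over the alternatives it ranged from -2.59 without PBS replicate 1 to -1.65 with a covariate that marks the libraries with Y-linked counts, a fit in which PBS replicate 1 is the only PBS library to which the WGP libraries are directly compared. In that fit Fcgr2b and Fcgr3 had log2 fold changes of 0.83 (adjusted p = 0.0205) and 0.90 (adjusted p = 0.0225), so their calls by the adjusted p alone depended on which PBS libraries served as the reference.

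**Figure D2:**
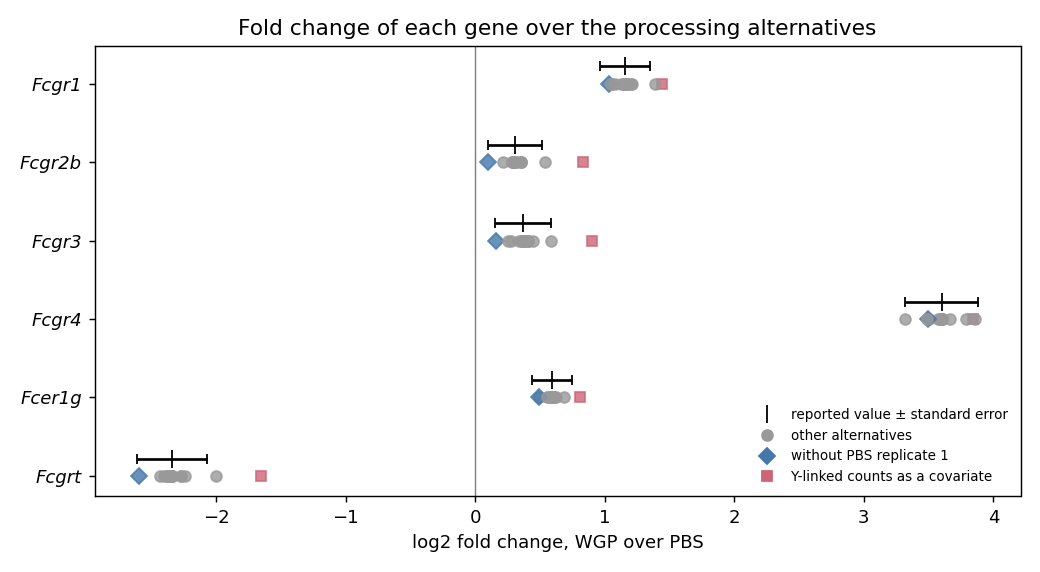
Log2 fold change of WGP over PBS for each Fc receptor gene (x axis), with the reported value and its standard error as a bar and each alternative setting as a point below it. Fcgr4 stayed between 3.32 and 3.86 and Fcgrt between -2.59 and -1.65, while Fcgr2b ran from 0.10 without PBS replicate 1 (diamond) to 0.83 with Y-linked counts as a covariate (square).

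Among the PBS libraries, Fcgr2b, Fcgr3, Fcer1g and Fcgrt were each lowest in replicate 1 and highest in replicate 3. There, the summed level of the resident macrophage markers (among them Mrc1, Lyve1, Folr2, Timd4 and Cd163) had the same order. These markers fell in WGP together with Fcgrt, with 9 of 11 past the test downwards, none upwards, none at 0 in either group and a summed level of 9668 to 20117 CPM in PBS and 3432 to 5532 CPM in WGP. Of 8 markers of Ly6C-high monocytes, 5 rose and 1 fell, and their sum was 2671 to 4232 CPM in PBS and 3865 to 4439 CPM in WGP, with none at 0. The 1 that fell, F13a1, was at 1336, 2728 and 3474 CPM in PBS and 422, 347 and 503 CPM in WGP. It made up a large part of the PBS sum, so this sum does not show the rise of the other 5. Neutrophil markers, of which 2 rose and 1 fell among 8, summed to 1923 to 4205 CPM in PBS and 2100 to 2331 CPM in WGP, and PBS replicate 1 was the highest library. Of markers of other cells, all 6 of acinar cells fell (978 to 4130 CPM in sum in PBS and 270 to 498 in WGP), 2 of 5 of endothelial cells rose (13.7 to 30.1 and 110 to 125 CPM), and 1 of 7 of NK cells and 1 of 6 of conventional dendritic cells fell. The endothelial rise lay in Flt1 (means of 11.5 and 89.8 CPM) and Kdr (4.51 and 25.9 CPM). Cdh5, Tek and Emcn did not pass, with means of 4.15, 1.29 and 0.497 CPM in PBS and 1.79, 1.16 and 0.799 CPM in WGP. Eosinophil markers summed to at most 82.5 CPM in PBS and 62.3 CPM in WGP. The part that these differences in cell type markers have in the Fc receptor values was not tested.

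A count ratio within each library, chosen after seeing the data, sets the members against genes of the gate and of macrophages. Itgam itself rose by 0.79 on the log2 scale (edgeR, adjusted p = 0.0062), while Csf1r, the receptor that macrophages need to survive, had a log2 fold change of -0.31 (adjusted p = 0.456). Fcgr4 was higher and Fcgrt lower in every WGP library against either gene, with mean log2 differences of 2.78 and -3.07 over Itgam and of 3.83 and -2.03 over Csf1r. The other 4 genes depended on the reference. Over Csf1r, all 4 were higher in every WGP library, by 1.42 for Fcgr1, 0.59 for Fcgr2b, 0.64 for Fcgr3 and 0.84 for Fcer1g. Over Itgam, Fcgr2b, Fcgr3 and Fcer1g were lower in every WGP library, by differences of -0.45, -0.40 and -0.20, and Fcgr1 overlapped with a difference of 0.38. Over Ptprc, which rose by 0.71 (adjusted p = 0.0073), Fcgr1, Fcgr2b, Fcgr3 and Fcer1g all overlapped between the groups, whereas Fcgr4 was higher by 2.88 and Fcgrt lower by a difference of -2.98. These ratios, and those between the members, are given as descriptions without a test.

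The levels of different genes were compared per kb of union exon length, that is as CPM divided by the kilobases of all annotated exons of a gene. In PBS, Fcer1g was the highest at 810 ± 106 CPM per kb, followed by Fcgrt at 323 ± 130 and Fcgr3 at 308 ± 90.1, whose ranges overlapped. Fcgr2b at 104 ± 31.2, Fcgr1 at 50.6 ± 13.1 and Fcgr4 at 21.4 ± 6.05 CPM per kb followed without overlap. Fcgr4 was thus the least abundant of the 6 genes in the PBS libraries. In WGP, Fcer1g led again at 1221 ± 55.2 CPM per kb, and Fcgr3 at 397 ± 54.7 came next. Fcgr4 had the third place at 260 ± 85.2 CPM per kb, with its highest library just under the lowest library of Fcgr3 (354 as against 355). Fcgr2b at 129 ± 6.68 and Fcgr1 at 113 ± 13.9 overlapped, and Fcgrt was last at 63.7 ± 8.20 CPM per kb. Among all genes tested, the mean level of Fcgr4 per kb moved from percentile 85.0 in PBS to 99.1 in WGP, and that of Fcgrt from 99.3 to 95.2.

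The place of Fcgr2b in this order depended on the length used, since 5790 bases are annotated as its exons and only 1020 as its longest coding sequence. Per kb of coding length, Fcgr3 (667), Fcgrt (614) and Fcgr2b (592 CPM per kb on average) all overlapped in PBS. In WGP, Fcgr2b at 733 CPM per kb of coding length then stood above Fcgr4 at 438 and below Fcgr3 at 860, with no overlap between these 3 genes. Fcgr4 was the lowest gene in PBS and Fcgrt the lowest in WGP by either length.

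The balance of activating over inhibitory transcripts was computed within each library as the sum of Fcgr1, Fcgr3 and Fcgr4 over Fcgr2b, in counts per kb of union exons. This ratio needs no scaling between libraries. It was 3.76, 3.91 and 3.37 in the PBS libraries and 4.92, 7.76 and 5.38 in the WGP libraries. Every WGP library was above every PBS library, and the mean log2 ratio was higher by 0.68, a 1.61-fold difference, with SDs of 0.11 in PBS and 0.35 in WGP. Per kb of coding length the ratios were 1.41, 1.47 and 1.27 in PBS and 1.75, 2.71 and 1.90 in WGP, again without overlap and with a log2 difference of 0.59.

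The 3 activating receptors contributed unequally to this shift. The ratio of Fcgr4 to Fcgr2b was 0.251, 0.269 and 0.132 in PBS and 1.43, 2.92 and 1.78 in WGP, so that Fcgr4 went from below Fcgr2b in every PBS library to above it in every WGP library, a 9.42-fold difference. By coding length it stayed below Fcgr2b in all libraries, between 0.423 and 0.865 in WGP. The ratio of Fcgr1 to Fcgr2b was 0.575, 0.621 and 0.331 in PBS and 0.797, 1.06 and 0.779 in WGP, also without overlap, and the log2 difference of 0.83 was 0.54 without PBS replicate 3. The ratio of Fcgr3 to Fcgr2b was 2.94, 3.02 and 2.91 in PBS and 2.69, 3.78 and 2.81 in WGP. Here the groups overlapped with a log2 difference of 0.05, and without WGP replicate 2 the sign of the difference turned to -0.10. In the PBS libraries the ratio of Fcgr3 to Fcgr2b barely moved, with an SD of 0.03 on the log2 scale, although the CPM of each gene differed more than 1.8-fold between the same libraries.

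**Figure D3:**
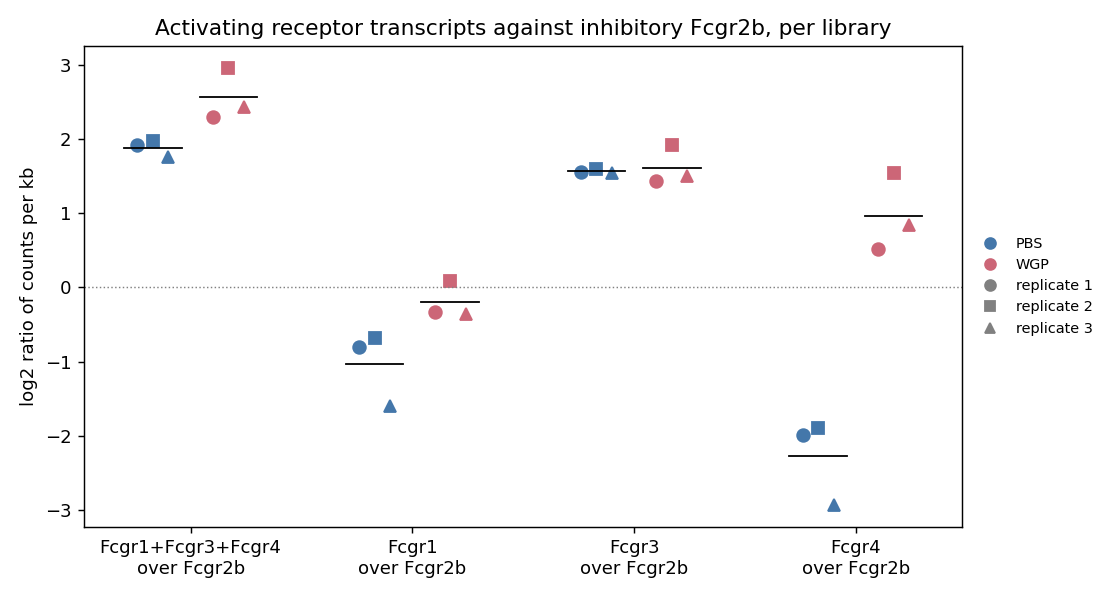
Log2 ratio of activating to inhibitory receptor transcripts in each library, in counts per kb of union exons, for the sum of Fcgr1, Fcgr3 and Fcgr4 and for each of them over Fcgr2b, with bars at the group means (n = 3). WGP libraries lie above PBS libraries in the sum, in Fcgr1 and in Fcgr4, where the gap is widest with a mean log2 difference of 3.24, and overlap with them in Fcgr3.

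As a share of the activating sum, Fcgr4 made up 6.68%, 6.88% and 3.90% in the PBS libraries and 29.0%, 37.6% and 33.2% in the WGP libraries. The share of Fcgr3 was 78.0%, 77.2% and 86.3% in PBS and 54.8%, 48.7% and 52.4% in WGP, so Fcgr3 remained the most abundant activating transcript in each of the 6 libraries. That of Fcgr1 was 15.3%, 15.9% and 9.83% in PBS and 16.2%, 13.7% and 14.5% in WGP, and the groups overlapped. The shares of Fcgr4 and Fcgr3 thus moved in opposite directions without overlap between the groups. By coding length the Fcgr4 shares were 5.27%, 5.44% and 3.06% in PBS and 24.2%, 32.0% and 27.9% in WGP.

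**Figure D4:**
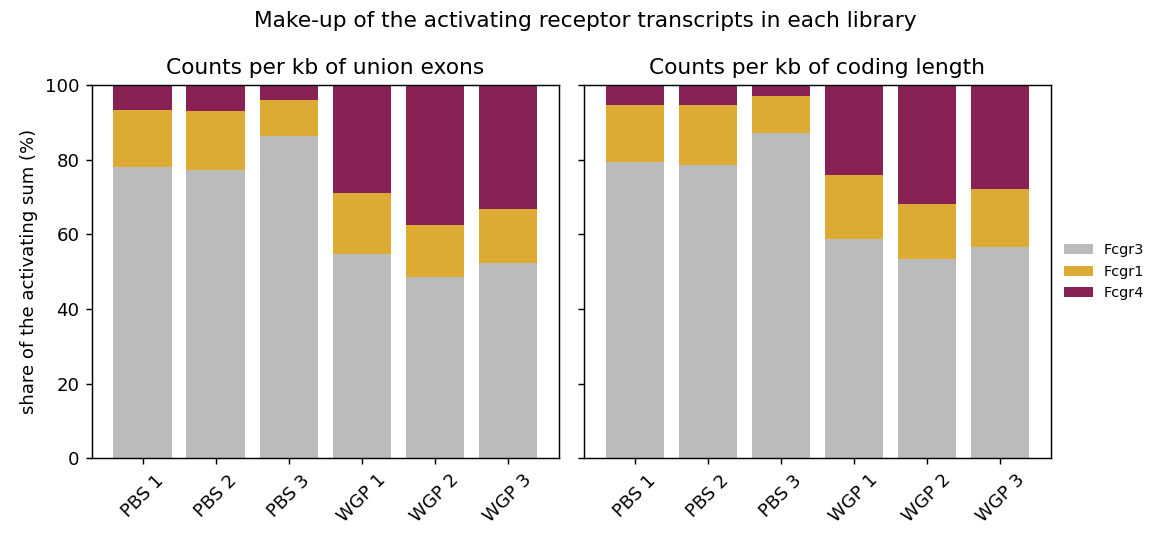
Make-up of the activating receptor transcripts in each library as stacked shares (%) of Fcgr3, Fcgr1 and Fcgr4, per kb of union exons on the left and per kb of coding length on the right. The share of Fcgr4 is 3.90% to 6.88% in PBS and 29.0% to 37.6% in WGP by union exons.

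The γ chain was then set against the receptors that depend on it. Fcer1g over the activating sum was 2.55, 2.01 and 1.99 in PBS and 1.86, 1.25 and 1.78 in WGP per kb of union exons, lower in every WGP library with a log2 difference of -0.44, which was -0.25 without WGP replicate 2. The γ chain transcript still exceeded the summed receptor transcripts in all 6 libraries. Against Tyrobp, the related ITAM adaptor of other myeloid receptors, Fcer1g was at 0.883, 0.806 and 0.972 in PBS and 0.914, 0.950 and 0.910 in WGP, and the groups overlapped with a log2 difference of 0.06. Tyrobp itself rose from 611 ± 80.6 to 881 ± 57.3 CPM with a log2 fold change of 0.53 (edgeR, adjusted p = 0.0435).

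The heavy and light chains of the neonatal Fc receptor moved in opposite directions. B2m, which also serves all class I MHC molecules, rose from 2716 ± 156 to 5861 ± 617 CPM (log2 fold change 1.11, edgeR, adjusted p = 0.000914). The ratio of Fcgrt to B2m per kb was 0.0599, 0.0986 and 0.154 in PBS and 0.00882, 0.00894 and 0.0103 in WGP. Every WGP library was below every PBS library, with mean log2 ratios that differed by -3.38, or 10.4-fold, and the 3 WGP ratios lay close together.

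Fcgr2b, Fcgr4, Fcgr3 and Fcer1g lie in this order on chromosome 1 of GRCm38, with gaps of 42.4 kb, 21.4 kb and 165 kb between neighbours, while Fcgr1 lies on chromosome 3 and Fcgrt on chromosome 7. Of the 4 neighbours on chromosome 1, Fcgr4, the gene between Fcgr2b and Fcgr3, changed 12.1-fold and the genes on either side of it did not pass the test. Fcgr2b and Fcgr3 hold a stretch of identical coding sequence, shown because single-end reads of 75 bases from inside it fit both genes. Found in the GENCODE vM21 transcripts, it runs for 129 bases over 2 exons of each gene, on the minus strand of GRCm38 within chr1:170966674-170968081 in Fcgr2b and chr1:171054167-171057792 in Fcgr3.
Fcgr2b and Fcgr3 shared coding run: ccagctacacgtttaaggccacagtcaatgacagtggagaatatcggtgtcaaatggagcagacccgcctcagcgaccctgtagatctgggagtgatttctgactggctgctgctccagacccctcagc
The 94 coding windows of 75 bases in common, not all of which lie inside this run, made up 8.61% of the coding windows of Fcgr2b and 11.8% of those of Fcgr3. No window of Fcgr1, Fcgr4, Fcer1g or Fcgrt occurred in a transcript of another gene. Outside the coding sequence, further windows of Fcgr2b occurred elsewhere, so that 5.43% of all its windows were not its own, and 155 exonic bases overlapped the antisense gene Gm38204. The sources do not give the strand setting or how reads that fit several genes were counted, so the counts of Fcgr2b and Fcgr3 are uncertain to this extent.

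The promoter windows of RefSeq (GRCm38.p6, 250 bases before to 50 after the start site) are shown for the strongest riser Fcgr4, for Fcgr1, for Fcgr2b, which did not pass the test, and for Fcgrt, which fell. They were searched on both strands for the letters TTCNNNGAA (GAS, the element bound by STAT dimers), GAAA, any 2 bases and GAAA again (ISRE, the interferon-stimulated response element) and GAGGAA (a core of the sites of the myeloid factor PU.1). Capitals mark the matches, none of which overlapped another.
Fcgr4, chr1:171018676-171018975, plus strand: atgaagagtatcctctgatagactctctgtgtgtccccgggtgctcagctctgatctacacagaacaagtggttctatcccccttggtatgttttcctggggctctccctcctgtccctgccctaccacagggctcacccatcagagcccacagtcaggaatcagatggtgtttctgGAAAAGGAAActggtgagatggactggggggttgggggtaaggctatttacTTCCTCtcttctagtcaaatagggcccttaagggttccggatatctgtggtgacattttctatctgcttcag
Fcgr1, chr3:96293920-96294219, minus strand: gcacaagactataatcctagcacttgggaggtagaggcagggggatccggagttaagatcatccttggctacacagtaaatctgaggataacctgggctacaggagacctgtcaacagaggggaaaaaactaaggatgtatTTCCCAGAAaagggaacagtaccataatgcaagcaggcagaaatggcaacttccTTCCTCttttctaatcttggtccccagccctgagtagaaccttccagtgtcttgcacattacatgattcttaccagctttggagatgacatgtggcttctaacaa
Fcgr2b, chr1:170976022-170976321, minus strand: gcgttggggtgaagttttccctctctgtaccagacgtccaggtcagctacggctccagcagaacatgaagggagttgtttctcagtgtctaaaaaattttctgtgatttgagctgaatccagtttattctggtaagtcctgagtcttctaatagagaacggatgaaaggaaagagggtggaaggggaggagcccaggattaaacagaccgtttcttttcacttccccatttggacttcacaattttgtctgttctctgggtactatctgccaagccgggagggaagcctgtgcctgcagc
Fcgrt, chr7:45103773-45104072, minus strand: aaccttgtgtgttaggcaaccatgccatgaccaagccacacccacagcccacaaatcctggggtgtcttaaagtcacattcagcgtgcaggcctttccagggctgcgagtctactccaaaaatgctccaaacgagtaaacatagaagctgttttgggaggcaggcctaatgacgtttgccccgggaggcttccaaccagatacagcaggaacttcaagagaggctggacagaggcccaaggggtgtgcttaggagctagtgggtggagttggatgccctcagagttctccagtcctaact
Fcgr4 held an ISRE match from base -73 to -64 of its start site and a PU.1 core, read here as TTCCTC from the other strand, from -22 to -17. Fcgr1 held a GAS match from -109 to -101 and a PU.1 core from -55 to -50. The only match in the windows of Fcgr3 was a PU.1 core, and none was found in those of Fcgr2b, Fcer1g and Fcgrt. Among all 32851 promoter windows of the table, 3.44% held an ISRE match, 8.3% a GAS match and 28.3% a PU.1 core. A match describes letters and is not a measured binding site.

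For each member, the genes with the most similar course over the 6 libraries were found by the root mean square difference of log2 CPM after centring, among 11680 genes. Nearest to Fcgr4 were Gbp6 and Ifi47, both interferon-inducible GTPases, and Fpr1, a receptor for formyl peptides, at differences of 0.146, 0.273 and 0.187, as against a median of 1.88 over all genes. Gbp6 had a log2 fold change of 3.84, Fpr1 of 3.60 and Ifi47 of 3.31. Gbp6 belongs to a family of near-identical genes whose counts may be split. For Fcgrt the nearest were Cp (ceruloplasmin, 0.126), Selenop (selenoprotein P, 0.131) and Jup (plakoglobin, 0.137), with log2 fold changes of -2.23, -2.44 and -2.53. For Fcgr1 they were Lpcat3 (0.0796), Ttc9c (0.0993) and Ifih1 (0.0995), the last of them a sensor of double-stranded RNA. For Fcer1g they were the transcription factor Klf13 (0.0419), the SLAM family receptor Cd84 (0.0527) and the interferon receptor chain Ifnar1 (0.0562). Fcgr2b was closest to Rras (0.0546), Fbxl15 (0.0645) and Slc35f6 (0.0647), and Fcgr3 to Lrp12 (0.0589), Ssx2ip (0.0636) and App (0.0683). Among the members, Fcgr2b and Fcgr3 were the most alike at 0.156, and Fcgr4 and Fcgrt the least at 2.96. Centring kept the difference between the 2 groups in this measure, so genes with a like fold change come out as near.

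Most of the other receptors that couple to the same γ chain rose. Of 7 listed, 6 were tested and 5 were called higher, none lower, with a median log2 fold change of 2.78, as against 0.48 for the 6 Fc receptor genes and -0.05 for all genes tested. The shares over all genes tested were 4.53% called higher and 4.96% called lower. Clec4e (Mincle, a receptor for mycobacterial and fungal glycolipids) was at 70, 48.7 and 59.4 CPM in PBS and at 1155, 1216 and 795 CPM in WGP, a log2 fold change of 4.15 ± 0.23 (edgeR, adjusted p = 5.2e-06). Clec4n (Dectin-2, a receptor for fungal mannans) had a log2 fold change of 2.50 and Clec4d, its close relative, of 2.41. Tarm1 (3.40, adjusted p = 0.0063) and Pira2 (1.95, adjusted p = 0.0235), the latter from a family of paired receptors with similar sequences, were the other 2. Gp6, the collagen receptor of platelets, had a log2 fold change of 3.07 without passing (adjusted p = 0.355), and Oscar had 0 counts in all 6 libraries. Among the 3 further signalling adaptors listed, of which Hcst has no ITAM, only Tyrobp passed, and Hcst and Cd247 had log2 fold changes of 0.41 and -0.01.

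Of 28 genes of the activating pathway behind the γ chain, 12 rose and 1 fell by the adjusted p, and 6 were called higher. Over all genes tested, 7.54% rose and 6.81% fell by the adjusted p, and 4.53% were called higher. Their median log2 fold change was 0.44. The Src family kinases, which phosphorylate the ITAM, included Fgr, at 189, 177 and 147 CPM in PBS and 663, 541 and 605 CPM in WGP (log2 fold change 1.82 ± 0.16, edgeR, adjusted p = 5.4e-05), Src (1.72, adjusted p = 0.0455) and Lyn (0.46, adjusted p = 0.0397). Syk, the kinase that docks on the ITAM, did not pass, with 830 ± 58.0 CPM in PBS and 923 ± 150 in WGP (log2 fold change 0.15, adjusted p = 0.598). Downstream of Syk, the adaptors Lcp2 (SLP-76) and Sh3bp2 rose by 1.29 and 1.28, the kinase Prkcd by 1.12, the exchange factor Vav1 by 0.69, the phospholipase Plcg2 by 0.59, the lipid kinase subunits Pik3cb and Pik3cd by 0.84 and 0.65 and the ubiquitin ligase Cbl by 0.58. Tec, a kinase related to Btk, fell by 0.83 on the log2 scale (adjusted p = 0.00475).

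On the inhibitory side, 1 of 11 genes of the pathway rose and 1 fell by the adjusted p, both by less than 1 on the log2 scale, with a median log2 fold change of -0.09. These counts are near the shares of 7.54% and 6.81% over all genes tested. Inpp5d, the phosphatase that acts behind Fcgr2b, was at 433 ± 48.8 CPM in PBS and 386 ± 29.0 in WGP (log2 fold change -0.17, edgeR, adjusted p = 0.508). Ptpn6, the tyrosine phosphatase SHP-1 used by many other ITIM receptors, rose from 477 ± 54.6 to 798 ± 64.0 CPM (0.74, adjusted p = 0.0078). Rasa1, a RasGAP, fell by 0.83 on the log2 scale (adjusted p = 0.0120). The difference between the 2 pathway lists was not tested.

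Several other receptors with an ITIM rose. Of 15 tested, 7 passed the test upwards and 1 downwards, and 5 were called higher, with a median of 0.44. The shares over all genes tested were 7.54% upwards, 6.81% downwards and 4.53% called higher. The 5 were Sirpa, the receptor for CD47, from 679 ± 105 to 1555 ± 101 CPM (log2 fold change 1.20, edgeR, adjusted p = 0.00076), Pirb (1.54), Pilra (1.84), Clec12a (1.14) and Cd300lf (1.94). Cd300a (0.72, adjusted p = 0.0471) and Lair1 (0.69, adjusted p = 0.0427) passed with smaller changes. Siglecg, a receptor of B cells, was called lower at -1.73 (adjusted p = 0.0415), with 217 CPM in PBS replicate 1 and 65.7 and 46.9 CPM in the other PBS libraries. No gene of the list was called lower without PBS replicate 1, without WGP replicate 1, without WGP replicate 2, with limma-voom or with the filter of filterByExpr.

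Of 15 other genes for antibody binding and transport, 13 were tested, 1 was called higher (B2m) and 3 lower, with a median log2 fold change of -2.15. Over all genes tested, 4.53% were called higher and 4.96% lower. Of the list, 1 gene was called lower with limma-voom, without WGP replicate 1 and without WGP replicate 3, and 2 without PBS replicate 1 and with the filter of filterByExpr. Fcrls, an Fc receptor-like gene of macrophages and microglia, was at 293, 472 and 506 CPM in PBS and 47.5, 33.4 and 33.1 CPM in WGP, a log2 fold change of -3.48 ± 0.25 (edgeR, adjusted p = 1.9e-05). It followed the same order over the PBS libraries as Fcgrt and the resident macrophage markers. Fcmr, the receptor for IgM, was at 206, 32.9 and 21.8 CPM in PBS and 6.76, 11.9 and 5.55 CPM in WGP (-3.43, adjusted p = 0.0128). Fcrla was at 87.9, 23.9 and 14.1 CPM in PBS and 9.66, 11.9 and 6.74 CPM in WGP (-2.15, adjusted p = 0.0333). Both are B cell genes and had their highest value in PBS replicate 1, as did the sum of the B cell markers, all 6 of which fell. Their part in these 2 genes was not tested. Trim21, the cytosolic antibody receptor, missed the threshold at 0.94 (adjusted p = 0.0507).

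The receptor for IgE shares Fcer1g but needs the α chain Fcer1a and, in mast cells and basophils, the β chain Ms4a2. Fcer1a had 46 counts and Ms4a2 had 40, all in PBS replicate 1, with 0 in the other 5 libraries. Both are near the most frequent low count of that library, 37 among counts between 10 and 100. Of 7 markers of mast cells and basophils, 5 were tested, which summed to 11.6 to 40.3 CPM in PBS and 33.0 to 47.7 CPM in WGP. Kit, which progenitors also express, was called higher, with 7.85 to 16.3 CPM in PBS and 32.7 to 47.1 CPM in WGP (log2 fold change 1.72, edgeR, adjusted p = 0.0032). Kit made up nearly all of the WGP sum, and the other 4 tested did not pass. Cpa3 and Mcpt4 were at 0 in all libraries and Mcpt8 and Tpsb2 at 0 in WGP. Mcpt8 had 396 counts in PBS replicate 1 and 34 in PBS replicate 2. Prss34 had 426 counts in PBS replicate 1, the library with the Fcer1a and Ms4a2 counts, and at most 4 in any other. The Fcer1g transcript was thus measured in samples with next to no transcript of the IgE-binding chain. Of the genes of the antibodies themselves, 9 were listed and 1 was analysed here, the joining chain Jchain, with 5735, 2473 and 2129 counts in PBS and 647, 2489 and 515 in WGP (log2 fold change -1.55, edgeR, adjusted p = 0.105), and the groups overlapped.

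**Figure D5:**
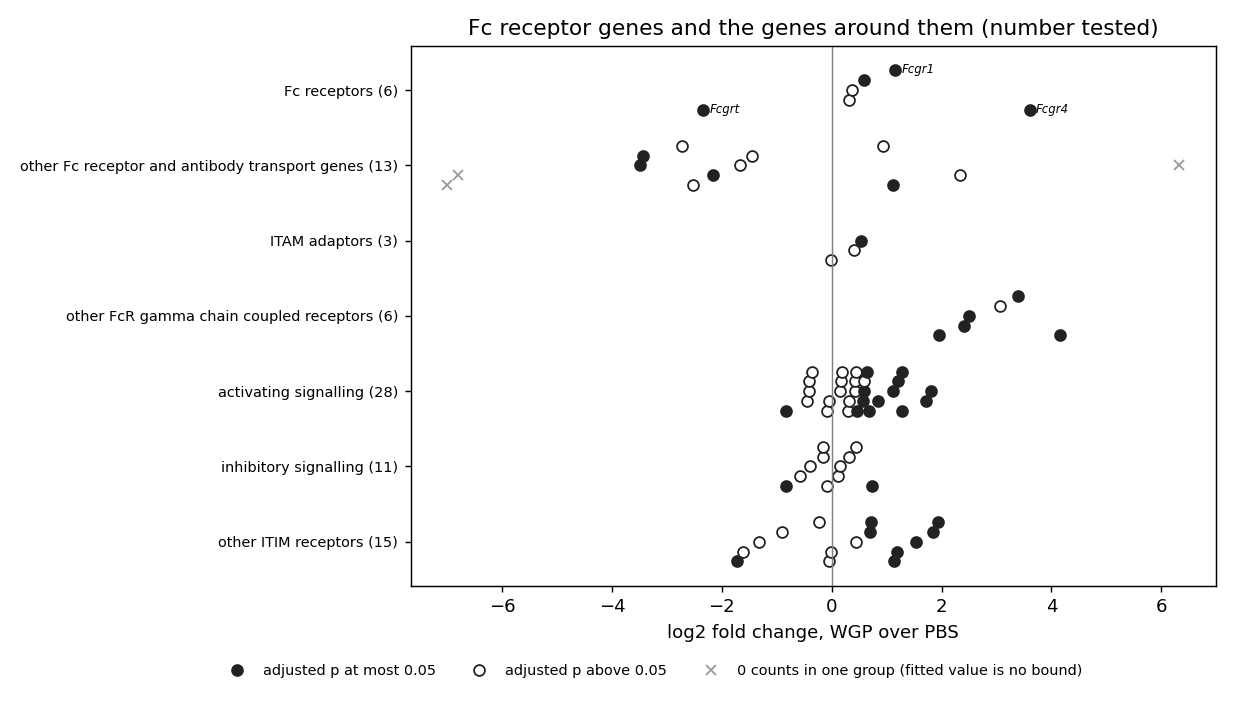
Log2 fold change of WGP over PBS (x axis) for every tested gene of the Fc receptors and of the 6 lists around them, with filled points past an adjusted p of 0.05 and open points above it. Genes with 0 counts in one group are crosses, since their fitted value is no bound. The list labelled ITAM adaptors also holds Hcst, an adaptor without an ITAM. The γ chain coupled receptors lie to the right of 0, with a median of 2.78, and most inhibitory signalling genes lie near 0, with a median of -0.09.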

How the data were processed

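CD45+CD11b+ cells from the pancreas of mice given PBS or WGP were sequenced as 3 libraries per group (poly-A, single-end reads of 75 bases). The authors aligned the reads to mm10 (GRCm38) with STAR 2.6 and deposited raw counts per Ensembl gene from HTSeq 0.10.0, without normalization, per the methods and the submitters' processing notes, which also name DESeq2. The annotation release, strand setting and handling of duplicates are not given in the sources used here. All count columns belong to the 6 libraries, and no pair of libraries was identical. Identifiers were matched to symbols through GENCODE vM21.

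The 14429 protein-coding genes whose RLE-normalized counts summed to 10 or more were tested in R 4.3.3 with edgeR 4.0.16 (TMM scaling, quasi-likelihood test of WGP against PBS, Benjamini-Hochberg adjustment), a procedure first tested on simulated data. A gene was called where its adjusted p did not exceed 0.05 and its log2 fold change was 1 or more in either direction. Standard errors were derived from the F statistic, as the log2 fold change over its square root. Ratios between genes were computed per library from counts per kb and carry no test. The genes named are the 6 members, the genes of each list past the adjusted p (or the 2 most abundant), the 3 genes most like each member (centred log2 CPM with a prior count of 0.5, mean of at least 1 CPM), and gate and partner genes. Syk, Inpp5d, Trim21, Fcer1a, Ms4a2, Gp6, Oscar, Hcst, Cd247, Csf1r and Kit were named beside these after their values were seen. So were the marker genes F13a1, Mcpt8, Prss34, Flt1, Kdr, Cdh5, Tek and Emcn. Values of 2 list genes are not reported here. The members and lists were chosen with earlier results of these data known.

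Same-numbered libraries did not deviate together (correlations of 0.02, -0.09 and 0.02), so no pairing was used. Alternatives were other scalings (RLE, upper quartile, library totals), DESeq2 1.42.0, limma-voom (limma 3.58.1), 4 other filters or gene sets, the adjusted p alone, a replicate block, a covariate for Y-linked counts leaving out each library in turn and, for ratios, coding length, no length or no Fcgr1.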

Additional observations from a re-analysis of the deposited data

How the results depend on the processing

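None of the 6 Fc receptor genes changed direction in 18 alternatives, and Fcgr4, Fcgr1 and Fcgrt were called in each of them. With the adjusted p alone, 2071 genes passed in place of 1369, Fcer1g was called at 0.59, and the counts were 1 of the further signalling adaptors, 13 genes of activating and 2 of inhibitory signalling in place of 0, 6 and 0. With a covariate marking the libraries with Y-linked counts, 8 of the other Fc receptor and transport genes (2 higher, 6 lower) and 1 inhibitory signalling gene were called in place of 4 and 0. With limma-voom the former count was 2, and it ranged from 2 (without WGP replicate 1 or 3) to 5 (without PBS replicate 2 or 3) when 1 library was left out. The causes were not tested. The log2 difference of Fcgr3 over Fcgr2b ranged from -0.10 without WGP replicate 2 to 0.14 without WGP replicate 1, and that of Fcer1g over Tyrobp from -0.0025 without PBS replicate 2 to 0.13 without PBS replicate 3. A replicate block gave 1341 called genes and changed no call of the 6 genes, and leaving out 1 library gave 1146 to 1396. Scaling by library totals alone moved the median log2 fold change of all genes tested from -0.05 to -0.16 and turned no member. Fcgr2b and Fcgr3 passed the adjusted p in 1 of the 18 alternatives, the covariate for Y-linked counts, at 0.83 and 0.90.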
